A study of Drosophila melanogaster with 3 samples.

Results

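Binding of the Hox protein Ultrabithorax (Ubx) was examined over homothorax (hth, FBgn0001235), a Hox cofactor gene of Drosophila melanogaster on the minus strand of chromosome arm 3R. The peaks described are those on 3R whose midpoint lay between positions 6320000 and 6475000 of the dm3 build, a window of 155 kb that contains the gene. Of the 10337 peaks in the deposited list, 2318 lay on 3R, and 7 of these lay in the hth window. They were chosen by position and not by score, though with earlier results of these data known. The peaks came from chromatin immunoprecipitation with sequencing (ChIP-seq) in S2-DRSC cells, a line derived from late embryos, made to carry a stable HA-tagged Ubx transgene (genotype HA::Ubx). For 24 h before chromatin was prepared, all cells received copper sulphate at 10 micromolar. The series holds 2 replicates precipitated with an antibody against HA and 1 input, all from this line. The promoter that drives HA-Ubx is not given in the sources used here, whether the line is a single clone is not given either, and cells without the transgene were not analysed here.

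Hth is a homeodomain protein of the TALE class, related to the vertebrate Meis proteins. It binds a second TALE protein, Extradenticle (Exd), and brings it into the nucleus, where the pair binds DNA together with Hox proteins such as Ubx and sharpens their choice of sites. In the fly, hth is known for its part in forming the proximal segments of the appendages, the antenna and the embryonic nervous system. The gene makes full-length proteins and shorter ones that lack the homeodomain.

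The gene was placed on dm3 from the Release 6 annotation, in which hth runs from 10507561 to 10639568 on 3R, by subtracting the constant offset of 4174278 bp stated for 3R. The offset was checked on the peaks themselves, because peaks of many DNA-binding proteins gather at transcription start sites. At the stated offset, 1173 of the 2318 peaks on 3R contained an annotated protein-coding start. Among 201 shifts between -10000 and 10000 bp in steps of 100 bp, no other shift gave as many, and shifts of 2000 bp or more gave 288 to 352. Among the 208 peaks within 1 Mb of the hth window, the count was likewise highest at the stated offset, at 113, and fell to 81 and 74 at shifts of -300 and 300 bp. Statements on starts, exons and introns below rest on this placement.

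**Figure D1:**
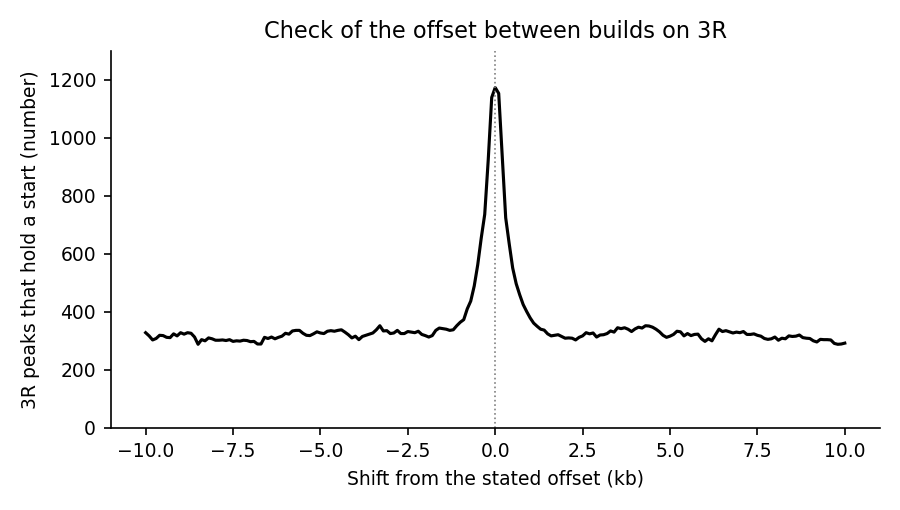
Number of the 2318 HA-Ubx peaks on 3R that contain an annotated protein-coding start (vertical axis) when the Release 6 annotation is placed on dm3 by the stated offset plus a further shift in kb (horizontal axis). The line is highest, at 1173 peaks, at a shift of 0 and lies between 288 and 352 at shifts of 2000 bp or more.

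The annotation gives 5 transcripts with 2 start sites. The transcripts hth-RA, hth-RC, hth-RF and hth-RI begin at position 10614276 of Release 6 (6439998 in dm3), and hth-RE begins 25.3 kb upstream of them, at 10639568 (6465290 in dm3). The 300 bases before each start are shown because an HA-Ubx peak covers the first start and none covers the second. By the offset, the first stretch lies wholly inside that peak. They were read at the annotated starts from the Release 6 genome and not from peak coordinates, and are given 5′ to 3′ on the minus strand of 3R, from 3R:10614277-10614576 and 3R:10639569-10639868 in Release 6. Capitals mark matches to the Hox core motif TAAT on either strand.
Shared start of hth-RA, hth-RC, hth-RF and hth-RI: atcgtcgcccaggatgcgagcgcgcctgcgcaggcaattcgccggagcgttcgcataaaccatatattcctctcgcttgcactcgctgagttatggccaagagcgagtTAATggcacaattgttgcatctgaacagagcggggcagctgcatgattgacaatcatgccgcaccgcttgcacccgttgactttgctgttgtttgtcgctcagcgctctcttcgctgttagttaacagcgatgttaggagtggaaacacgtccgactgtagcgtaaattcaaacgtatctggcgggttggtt
Start of hth-RE: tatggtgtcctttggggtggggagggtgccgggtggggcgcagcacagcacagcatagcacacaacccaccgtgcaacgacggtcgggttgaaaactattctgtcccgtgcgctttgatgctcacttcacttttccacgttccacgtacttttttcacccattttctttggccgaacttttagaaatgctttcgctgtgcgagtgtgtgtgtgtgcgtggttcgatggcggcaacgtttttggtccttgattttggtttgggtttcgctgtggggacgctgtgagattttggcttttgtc

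The stretch before the shared start held 1 match to TAAT, at position -192 counted back from the start, and the stretch before the hth-RE start held none. Of 19253 stretches of the same length before annotated protein-coding starts on the 6 arms, 92.5% held at least 1 match, with a median of 4. Both hth stretches were richer in G and C, at 53.0% and 52.3%, than the median of 38.3% over these stretches (interquartile range 33.0% to 45.0%). The Hox-Exd composite TGATNNAT matched neither hth stretch and 18.9% of all stretches. A Meis-type motif, TGACAG, also matched neither, against 10.6% of all stretches. The GAGA factor motif GAGAG matched the shared-start stretch at -231 and -87 and did not match the hth-RE stretch, against 32.5% of all stretches with a match. Both strands were searched for each motif, for exact matches to the stated letters only. Sites that differ by 1 letter were not counted, so no match does not mean that no such site is present. A palindromic match was counted once, and no match of one motif overlapped a match of another. These matches describe the letters before the starts only. The sequences under the other 6 peaks were not read.

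The HA-Ubx peak with the highest score of the window lay on the shared start. It ran from 6439710 to 6440875 (1166 bp), from 288 bp downstream of the shared start to 877 bp upstream of it, and scored 101.6. Here the score is the value that the authors deposited for each peak, and which quantity of the peak caller it is, is not given, so it is used only to describe and rank peaks within the list. Of the 2318 peaks on 3R, 18 scored higher, and among the 1173 that contain an annotated start this peak ranked 6. The median score of those start-containing peaks was 26.1, and that of the 1145 other peaks on 3R was 25.5. It was also the widest of the 7 peaks. By width it ranked 285 among the start-containing peaks. It was the only peak of the window to overlap an exon, the first exon of the 4 transcripts that begin there. Its midpoint lay upstream of that exon, inside the first intron of hth-RE.

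The second start, that of hth-RE, lay in no peak. The nearest peak edge was 16.8 kb away. Thus 1 of the 2 hth starts was inside a peak, where 38.3% of the 4532 annotated protein-coding starts placed on 3R were. Peaks that contain a start made up 50.6% of all peaks on 3R and 1 of 7 in the hth window (14.3%). The only protein-coding gene annotated in the window is hth, with 2 starts, so at most 2 of its peaks could contain one. The share in the window was thus limited by its gene content and cannot be set against that of the arm.

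**Figure D2:**
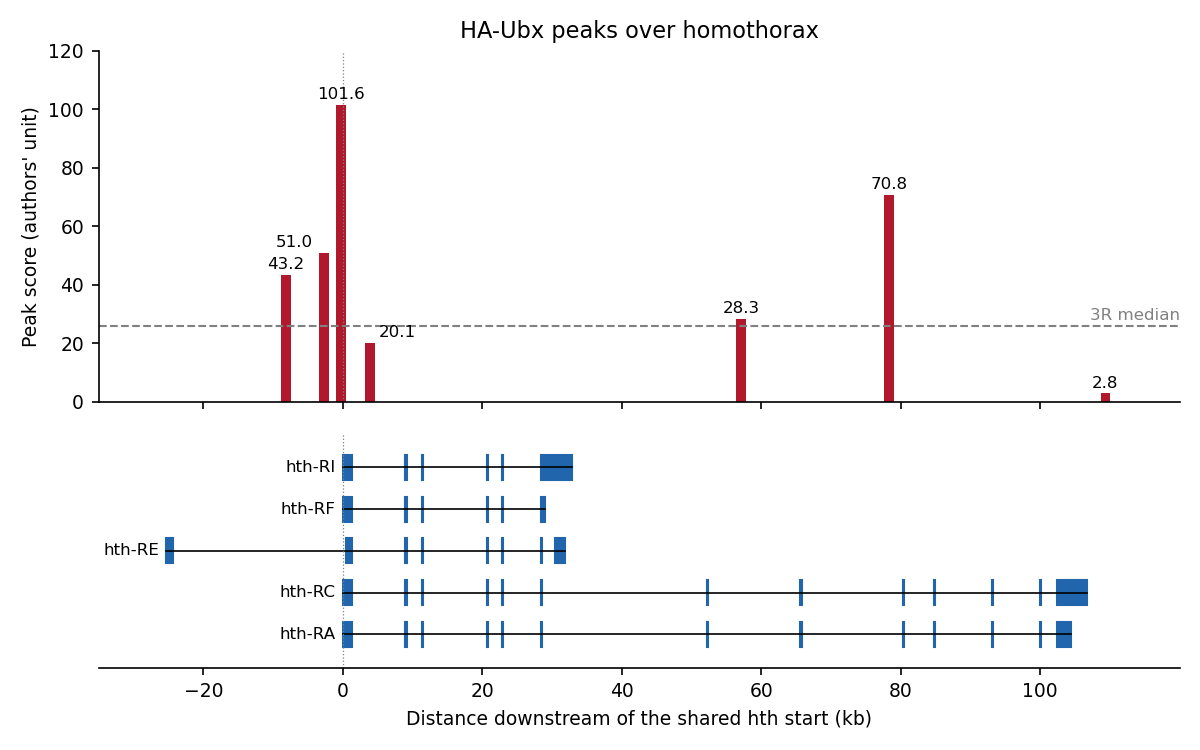
HA-Ubx peaks of the hth window (upper panel; bars at the peak midpoints, height giving the authors' score) above the 5 annotated hth transcripts (lower panel; boxes are exons, lines introns), both against the distance in kb downstream of the shared start, so that the gene reads from left to right. The bar of 101.6 stands at the shared start with 3 others within 10 kb, 2 bars stand in introns that only hth-RA and hth-RC contain, and the lowest bar (2.8) lies beyond the 3′ end of the gene; the dashed line is the median score of 3R (25.9).

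Another 3 peaks lay close to the shared start, so that 4 of the 7 fell within 10 kb of it. Upstream, in the first intron of hth-RE, a peak from 6442292 to 6443183 (892 bp) scored 50.96 and ranked 347 on 3R. A further peak in the same intron, from 6447815 to 6448530 (716 bp), scored 43.2 and ranked 512. Downstream of the shared start, a peak from 6435775 to 6436424 (650 bp) lay in an intron present in all 5 transcripts and scored 20.1, below the 3R median of 25.9. From the first to the last base the 4 peaks took up 12.8 kb. The closest pair was the start peak and its upstream neighbour, whose midpoints lay 2445 bp apart and whose edges were 1416 bp apart. The start peak thus had 3 other midpoints within 10 kb. Among all start-containing peaks of 3R, 50.1% had as many or more, so this number of neighbours was common on the arm.

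The long 3′ part of the gene carried 2 of the 6 peaks inside it. The 3 shorter transcripts hth-RE, hth-RF and hth-RI end between 6407128 and 6411006. The remaining 73.8 kb of the gene belong to hth-RA and hth-RC alone. Of these, hth-RC runs on to the 3′ end at 6333283, and hth-RA stops at 6335569. The 73.8 kb held 2 peaks, both in introns, and the other 58.2 kb of the gene held 4. Whether counts this small differ in density was not tested. One, from 6361324 to 6361960 (637 bp), scored 70.8, the second highest score of the window, and ranked 115 on 3R. It lay 78.4 kb downstream of the shared start, between exons ending at 6359728 and beginning at 6374329. The other, from 6382363 to 6383419 (1057 bp), scored 28.3 and ranked 1035, between exons ending at 6374376 and beginning at 6387631. Between it and the group at the start lay 52.4 kb without a peak (6383420 to 6435774), the longest gap between members. Of the 2317 gaps between adjacent peaks on 3R, 4.19% were as long or longer. That share is for single gaps and does not allow for picking the longest in a window. By midpoint, all 6 peaks inside the gene were intronic. The share of the gene that is intron was not calculated, so this count has no background to be read against.

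The seventh peak lay beyond the 3′ end of hth, 2.5 kb from it, at 6330549 to 6330771. At 223 bp it was the narrowest of the 7, and its score of 2.82 ranked 2315 of 2318 on 3R, where 11 peaks (0.475%) scored under 5. The peaks nearest to the window on either side were at 6260379 to 6261302, with a score of 26.0, and at 6490654 to 6491092, with a score of 46.7. They were separated from the first and the last member by 69.2 kb and 42.1 kb without a peak. Of the gaps on 3R, 2.81% and 5.83% were as long or longer than these. Also annotated in the window are the microRNA gene mir-4944, inside hth and 7956 bp from the nearest peak, and the antisense RNA gene asRNA:CR44018, which overlaps the hth-RE start and lies 16471 bp from the nearest peak.

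Set against equal-length windows of 3R, the hth window held fewer peaks than most over the whole list, but not among the strongest peaks, and had a higher median score than most. Of 179 windows of 155 kb laid end to end along the arm, 145 (81%) held 7 peaks or more and 34 held fewer. The median was 12 peaks, with an interquartile range of 8 to 17. At the mean density of 3R a window of this length would hold 12.9 peaks, which lies inside the exact Poisson 95% interval of the hth count (2.81 to 14.4). The difference from the mean of the arm was therefore within counting error. Among the 25% of all peaks in the list that score highest, the hth window held 4, and the share of windows with as many or more fell to 44.1%. Peaks covered 3.45% of the hth window, against a median of 5.96%.

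The scores of the 7 peaks ran from 2.82 to 101.6 with a median of 43.2, against a median of 25.9 over 3R (interquartile range 16.9 to 40.7). Of the 175 windows that held a peak, 8 (4.57%, the hth window included) had a median score as high or higher. A top score as high or higher was found in 16 of them (9.14%). Among the 46 windows with 5 to 9 peaks, which rest on similarly few values, 4 had a median score as high or higher (8.70%). The top 25% of scores on 3R, those of 40.7 or more, held 4 of the 7 hth peaks (57.1%, exact 95% interval 18.4% to 90.1%). This interval includes the share of the arm. Counted this way, 111 of the 179 windows held fewer such peaks than the hth window and 47 held more, with a median of 3. Peak widths in the hth window, 223 to 1166 bp with a median of 716 bp, lay among those of 3R, with a median of 659 bp and an interquartile range of 449 to 1042 bp.

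**Figure D3:**
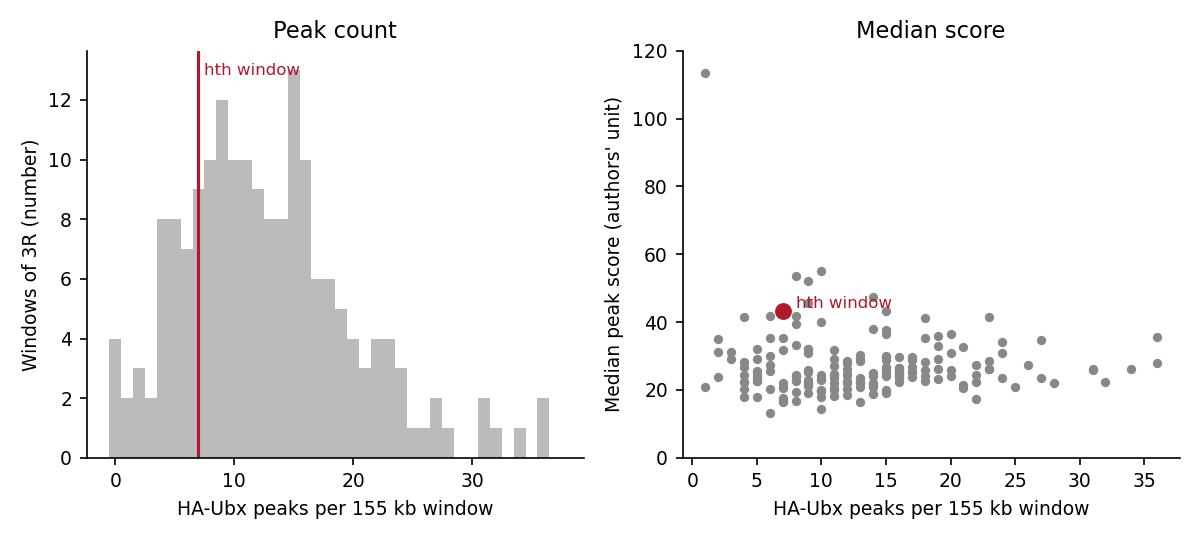
Left, number of HA-Ubx peaks in each of 179 windows of 155 kb on 3R, with the hth window (7 peaks) marked by a line; the median window held 12. Right, median peak score (authors' unit) against the number of peaks for the 175 windows with a peak, 1 point per window; the hth window (median score 43.2) lies above 167 of them.

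**Figure D4:**
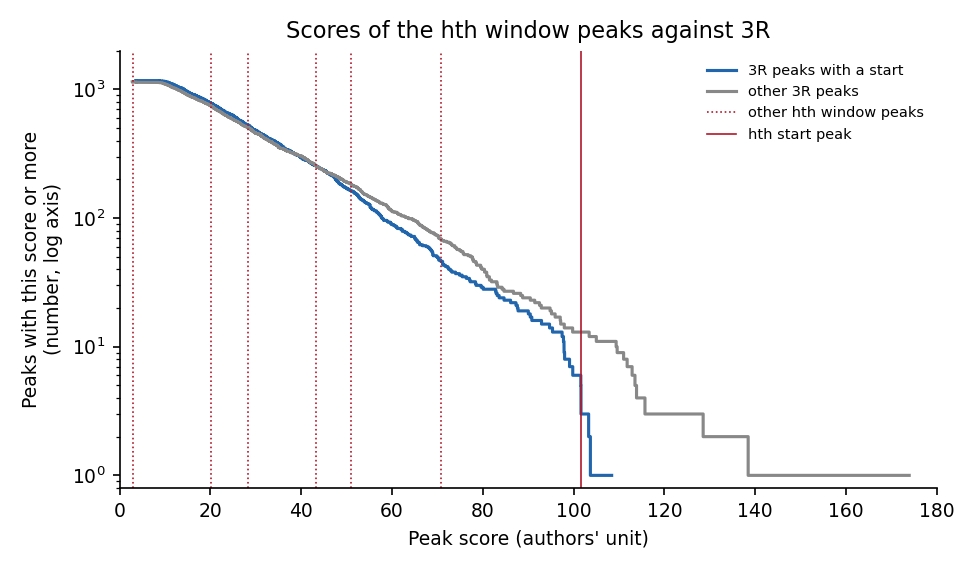
Number of 3R peaks with a given score or more (log axis) against the score in the authors' unit, for 1173 peaks that contain an annotated start and 1145 that do not. Vertical lines mark the 7 peaks of the hth window; the solid line, the peak at the shared start (101.6), lies near the end of the curve for start-containing peaks, and the lowest (2.82) near its beginning.

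Midpoints of adjacent peaks were 2.4 to 53.2 kb apart with a median of 13.3 kb, against a median of 4.81 kb over 3R. The median inside a window was as long or longer in 17 of the 173 windows with 2 or more peaks (9.83%). This distance depended on which peaks were counted. Without the weak peak beyond the 3′ end, the median over hth was 5.4 kb. The arm without its peaks scoring under 5 gave 4.82 kb. Among the top 50% of peaks by score, which leave out that weak peak, the hth median was 13.3 kb, against 9.83 kb over 3R. Another midpoint lay within 5000 bp of 3 of the 7 hth peaks (42.9%, exact 95% interval 9.90% to 81.6%), against 73.8% of the peaks on 3R. These 3 were the start peak and its neighbours on each side. The arm's share lies inside the interval, so the difference was not beyond counting error. The Poisson and exact intervals cover counting error only and treat neighbouring peaks as independent, which they need not be.

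The hth gene was compared with the other genes of 3R longer than 100 kb, of which 15 could be placed on dm3, hth included. Each of the 15 held at least 1 peak, and 48 of the 60 genes over 50 kb did. At the mean density of 3R, 83.1 peaks per Mb, genes over 100 kb would hold several peaks each, so this count follows from length. The hth gene itself held 6 peaks over 132.0 kb, or 0.455 per 10 kb, and ranked 9 of 15, near the median of 0.514. The densest were pyd, which encodes a cell junction protein, with 1.34 peaks per 10 kb, fru, a transcription factor gene of male courtship, with 0.990, and pum, a gene for an RNA-binding translational repressor, with 0.875. The Hox gene Antp followed with 0.680, and CG46467, which overlaps Glut4EF and shares its peaks, had 0.613. At the other end CG45263 and Gfrl had 0.177 and 0.094.

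In 13 of the 15 long genes a peak contained an annotated start. Among genes of 3R over 50 kb, these 15 included, the count was 35 of 60. The 15 genes have 1 to 9 starts each, and no share per gene over all of 3R was calculated. These counts therefore have no like background. None of the other 12 long genes with a start peak had one that scored as high as that of hth. The next were fru with 87.8 and Dys, the dystrophin gene, with 75.4. Counting every peak inside the gene, fru held one that scored higher than any in hth, at 112.9. Of the 6 hth peaks inside the gene, 4 lay within 10 kb of an hth start (66.7%), a zone that makes up 22.7% of the gene. The ratio of these shares, 2.93 for hth, was higher in 3 of the other 14 long genes and lower in 11. The higher ones were CG45263 (both of its 2 peaks, in a zone of 8.83% of the gene), SKIP (66.7% of 3 peaks in 18.5% of the gene) and Fur1 (28.6% of 7 peaks in 7.96% of the gene).

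**Figure D5:**
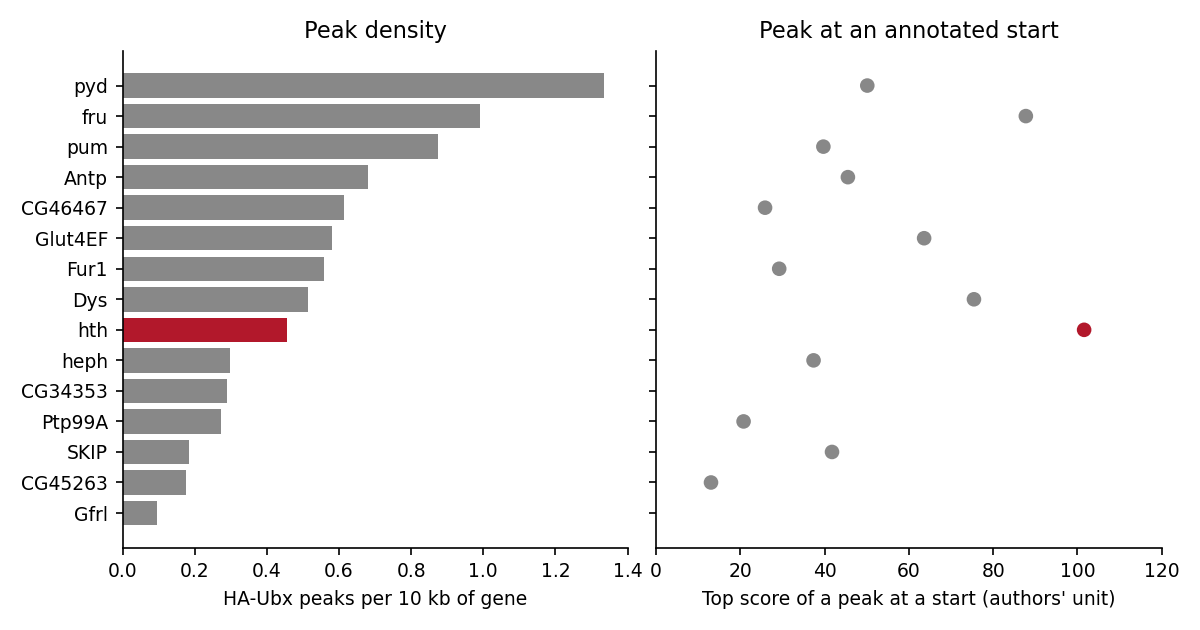
The 15 genes of 3R longer than 100 kb that could be placed on dm3, hth in red. Left, HA-Ubx peaks per 10 kb of gene, with hth (0.455) ninth; right, score in the authors' unit of the highest peak that contains one of the gene's annotated starts, with hth (101.6) farthest to the right and no point for the 2 genes without such a peak.

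Homeobox genes, which encode homeodomain transcription factors and include the Hox genes with which Hth acts, were taken from a list of 28, of which 27 lie on 3R. The list was not drawn from the annotation and may leave out homeobox genes of 3R, so places given are among these 27. The gene for the partner protein Exd is not on 3R and was not placed. By midpoint, 10 of the 27 held a peak inside the gene and 17 held none. Many of these genes are only a few kb long. Of the 17, Dfd, Dr, E5, Ptx1, bcd, btn, ems and lbl had a start in a peak whose midpoint lay outside the gene. The hth start peak counted as inside because its midpoint lay in the first intron of hth-RE. Places by density thus depend on the midpoint rule. Per 10 kb of gene, hth ranked 6, after lbe (2.02, from 1 peak), zfh1 (1.72), Abd-B (1.33), Scr (0.745) and Antp (0.680). A peak contained an annotated start in 15 of the 27, and the score at the shared hth start was exceeded only by that at the start of lbe, a homeobox gene of heart and muscle precursors, by a small margin (101.63 against 101.58). Next after these came Dr, with 86.1. Counting every peak inside the gene, Ubx also held a higher score than hth, 113.9, at a peak that contained no start of Ubx. Of the 8 Hox genes in the list, 5 had a start in a peak, with scores of 82.8 at Dfd, 58.2 at abd-A, 57.9 at Scr, 45.5 at Antp and 25.6 at Abd-B. Over 3R, 38.3% of the 4532 annotated protein-coding starts lay in a peak. That share is per start, and none per gene was calculated, so these gene counts have no like background. With 10 kb added on each side of every gene, hth held 0.461 peaks per 10 kb and ranked 20 of 27, so its place by density depended on the flanks.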

How the data were processed

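ChIP-seq of HA-Ubx was deposited as 1 peak list that the descriptions of both HA replicates name. The submitters' processing notes name BWA 0.7.12, MACS2 and the build dm3. Thresholds, the use of the input and how replicates were combined are likewise not given. Per the file, which has no header, each row holds a position and a score deposited by the authors, whose quantity is not stated. Read depth is unknown, and with 1 list for both replicates there is no replicate error and no test between samples.

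Peaks were assigned by midpoint, and coordinates are 1-based. Windows of 155 kb were laid outward from the hth window within the span of 3R peaks. Annotation came from Ensembl release 115 (Release 6 coordinates), placed on dm3 3R by the stated offset. The hth limits were the same in RefSeq. Genes before the start of dm3 3R could not be placed, which left out 3 genes over 100 kb. All 7 peaks are named, with the 5 densest and 2 sparsest long genes and the 5 densest homeobox genes of the list. The members and lists were chosen with earlier results of these data known. Alternatives were score filters, joining of peaks, window layouts, gene limits and neighbour limits. Counting, joining and the offset scan were tested on simulated data. Software was matplotlib 3.10.9, pandas 2.3.3, scipy 1.17.1 and numpy 2.4.6 under Python 3.11.15.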

Additional observations from a re-analysis of the deposited data

How the results depend on the processing

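The 10 values were recalculated under 40 alternatives in all, of which 29 stayed within the exact interval of a share or, for counts, medians and covered length, within 1.5 times. The share of 3R windows with as many peaks as the hth window or more, 81.0%, was 66.5% among the top 50% of peaks by score and 44.1% among the top 25%, where the hth window held 4 peaks, which covered 2.20% of it in place of 3.45%. It was 74.3% after joining peaks under 1000 bp apart, none of which lay in the hth window, and 73.5% over the windows of 5 arms. No hth peak (0%) had a neighbour within 1000 bp. No peak midpoint lay in an exon (0), but 1 peak overlapped one. Among the 27 listed homeobox genes, the share at least as dense as hth went from 22.2% to 74.1% with 10 kb flanks. With these flanks hth itself went from 0.455 to 0.461 peaks per 10 kb, and genes with a peak from 10 to 25 of 27. The cause of these moves was not tested. Without scores under 5 the median score was 47.1 and the median spacing 5.4 kb in place of 13.3 kb. The spacing was also 5.4 kb among the top 25%, where the arm's own median was 19.5 kb. Among the top 50% it stayed at 13.3 kb, against 9.83 kb for the arm. No replicate could be left out, and no paired analysis was possible because both replicates share 1 list. The depth behind each peak is unknown.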
